A study of Mus musculus with 4 samples.

Results

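The opioid and cannabinoid receptors described here are 5 genes, taken by their symbols from the 31053 genes counted. Oprm1, Oprd1, and Oprk1 encode the mu, delta, and kappa opioid receptors, Oprl1 encodes the nociceptin receptor, and Cnr1 encodes the cannabinoid receptor CB1. All 5 proteins are cell surface receptors that couple to Gi/o proteins. An agonist bound to them lowers adenylyl cyclase activity, reduces current through voltage-gated calcium channels, and can open potassium channels of the kind that contains the Kcnj3 subunit, so that a neuron fires and releases transmitter less readily. In the DRG they are known as sites at which opioids and cannabinoids act on pain outside the brain.

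The comparisons asked which DRG neurons carry these receptor mRNAs, and how their levels differ in neurons with and without a mark of injury once the sciatic nerve has been loosely tied, a model called chronic constriction injury (CCI). GFP+ cells were sorted from L4-5 DRGs of male and female mice 7 days after bilateral surgery, either sham (Male-Sham and Female-Sham) or CCI (Male-CCI and Female-CCI). All mice, sham included, were heterozygous PirtEGFPf animals aged 7 to 8 weeks on a C57BL/6 background, in which EGFPf stands in place of the Pirt coding sequence under the Pirt promoter, which is active in most DRG neurons. Each group was 1 library made from 20 DRGs pooled from 5 mice. Sham and CCI therefore have 2 libraries each, 1 per sex, and p-values measure only the spread between these pools. Littermates had the same surgery, so litter and surgery cannot be told apart.

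The libraries held 4019 to 8035 cells and 195684124 to 237069156 UMIs, and 15133 neurons were kept, 2817 to 5398 per library. Among all 23691 cells, 1085 barcodes occurred in more than 1 library (2590 cells), with 215 to 513 shared by each pair of libraries and the most by Male-Sham and Female-CCI. Of the 15715 kept cells, 34 carried 1 of 17 such barcodes. Neurons fell into 10 named classes: NP1- to NP3-like (non-peptidergic), PEP1-, PEP2-, PEP3/4-, and PEP5-like (peptidergic), NF1- and NF2-like (large and myelinated), and cLTMR-like (C-fiber low-threshold mechanoreceptors). CCI-induced (CCI-ind) clusters and a cluster of 263 neurons led by Rxfp1 and Calb1, which was left unnamed, made up the rest. Sprr1a, which DRG neurons switch on after axotomy, served as the mark of an injured neuron. A neuron was Sprr1a+ where the natural log of 1 plus its Sprr1a UMIs per 10000 was above 1, which held for 42 and 144 neurons of Male-Sham and Female-Sham and for 1467 and 1789 neurons of Male-CCI and Female-CCI. Satellite glia (SGC)-like cells gave a background, with no UMI of Oprm1, Oprd1, Oprk1, or Oprl1 in 558 cells, which allows a share of up to 0.538%, and 3 UMIs of Cnr1. They were shallow, with a median of 4901.5 UMIs against 41375 in neurons.

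On GRCm38, Oprm1 lies at chr10:6758506-7038198 on the plus strand and overlaps Ipcef1 on the other strand over 152403 bases and Gm10945 over 3256. Oprd1 lies at chr4:132110726-132144486 on the minus strand. Oprk1 (chr1:5588466-5606131), Oprl1 (chr2:181715016-181720985), and Cnr1 (chr4:33924593-33948831) are on the plus strand. Because these receptors were lower together in Sprr1a+ neurons, the 200 bases before a RefSeq start (GRCm38.p6) are shown, 5′ to 3′ on the strand of the gene, for the starts with no annotated exon in that stretch: chr10:6788370-6788569 for Oprm1, chr4:132144487-132144686 for Oprd1, chr2:181714816-181715015 for Oprl1, and chr4:33924064-33924263 for Cnr1.
Oprm1: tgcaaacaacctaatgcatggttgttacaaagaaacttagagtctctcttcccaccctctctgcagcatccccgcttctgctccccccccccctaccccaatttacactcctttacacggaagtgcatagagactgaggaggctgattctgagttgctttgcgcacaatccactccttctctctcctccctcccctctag
Oprd1: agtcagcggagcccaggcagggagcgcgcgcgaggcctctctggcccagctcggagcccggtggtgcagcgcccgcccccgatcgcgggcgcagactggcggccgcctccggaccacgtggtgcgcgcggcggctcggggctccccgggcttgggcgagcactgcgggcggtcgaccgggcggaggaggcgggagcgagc
Oprl1: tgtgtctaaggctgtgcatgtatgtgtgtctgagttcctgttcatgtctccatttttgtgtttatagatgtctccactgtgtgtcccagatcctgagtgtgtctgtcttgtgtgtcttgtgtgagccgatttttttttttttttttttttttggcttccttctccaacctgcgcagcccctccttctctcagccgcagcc
Cnr1: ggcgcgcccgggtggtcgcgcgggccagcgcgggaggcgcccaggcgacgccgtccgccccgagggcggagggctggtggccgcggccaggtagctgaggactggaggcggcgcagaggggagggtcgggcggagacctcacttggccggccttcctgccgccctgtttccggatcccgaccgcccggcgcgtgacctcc
The stretches of Oprd1 and Cnr1 were rich in G and C (80.0% and 79.0%), and those of Oprm1 and Oprl1 less so (52.0% and 45.5%). The letters TGANTCA, to which AP-1 factors can bind, and TGACGTCA, the cyclic AMP response element (CRE), were searched on both strands of 250-base windows. Neither was in the windows before any RefSeq start of these 4 genes, so no base is in capitals. TGANTCA was in 6.75% and the CRE in 1.55% of all 32851 such windows.

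Each receptor had its own distribution over the classes. The classes were made from these same cells, with Oprk1, Oprl1, and Cnr1 among the clustering genes, so their levels are a description with no test. Levels are UMIs of a gene per 1000000 UMIs (CPM) in Sprr1a- neurons, as mean ± SD over the 2 sham libraries unless libraries are named, and they are not compared between genes.

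Oprm1, the receptor for morphine, was present in peptidergic, NP1-, NP3-, and NF2-like neurons and nearly missing from NF1- and cLTMR-like neurons. PEP2-like neurons had 18.6 ± 0.786 CPM, PEP5-like neurons 16.8 ± 2.76, NP1-like neurons 16.5 ± 2.65, and PEP3/4-like neurons 16.2 ± 0.969 CPM. Neighbors in this order did not differ beyond their spread. NF2-like neurons (12.4 ± 1.54 CPM), PEP1-like neurons (11.7 ± 0.0856 CPM), and NP3-like neurons (9.87 ± 0.701 CPM) were next. NP2-like neurons, marked by Mrgprd, were much lower at 2.59 ± 0.0437 CPM. In cLTMR-like neurons 2 and 0 UMIs were found in 363 and 674 cells of Male-Sham and Female-Sham. At the other end, Oprm1 had a UMI in 41.1% (34.7 to 47.8%) and 38.1% (33.8 to 42.5%) of PEP2-like neurons, with 95% exact binomial intervals that cover counting error only.

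Oprd1, the delta receptor, was found mostly in NP2-like neurons, which held 188 of its 224 UMIs in neurons. Its level there was 2.08 and 1.98 CPM in the sham libraries and 3.47 and 2.25 CPM in the CCI libraries, the male library first. NP1-, PEP2-, PEP3/4-, and cLTMR-like neurons had no UMI of Oprd1 in any library. Even in NP2-like neurons of sham, a UMI was found in only 12.6% (9.72 to 16.0%) and 8.97% (6.79 to 11.6%) of cells.

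Oprk1, the kappa receptor, was found mostly in PEP1-like neurons, which held 1321 of its 1418 UMIs in neurons. PEP1-like neurons were at 15.1 ± 2.48 CPM and PEP2-like neurons at 1.19 ± 0.0835 CPM. Within PEP1-like neurons, the cluster led by Fgg, Oprk1, and Chrm2 had 30.7 and 25.1 CPM in Male-Sham and Female-Sham, and the cluster led by Oprk1, Cldn9, and Ddit4l had 24.3 and 17.8 CPM. The PEP1-like cluster led by Cldn9, Comp, and Kcnv1 was lower in both, at 6.25 and 3.85 CPM. In PEP2-like neurons, Oprk1 was at 2.34 and 2.22 CPM in the cluster led by Stum and Col25a1 and had no UMI in that led by Dcn and Tmc3.

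Oprl1, the receptor for the peptide nociceptin, had like levels in a peptidergic and a myelinated class. PEP5-like neurons had 25.2 ± 2.47 CPM and NF1-like neurons 25.2 ± 2.91 CPM, which did not differ beyond their spread. The unnamed Rxfp1 and Calb1 cluster (18.8 ± 2.19 CPM) and PEP3/4-like neurons (18.7 ± 1.06 CPM) were also alike within their spread, followed by PEP2-like (14.8 ± 0.150 CPM) and NP2-like neurons (8.68 ± 1.06 CPM). The low end held cLTMR-like (5.85 ± 0.234 CPM), NF2-like (5.81 ± 1.69 CPM), and PEP1-like neurons (2.26 ± 0.447 CPM). NP1-like neurons had 0 and 1 UMIs and NP3-like neurons 2 and 4 UMIs in Male-Sham and Female-Sham. In NF1-like neurons, Oprl1 had a UMI in 79.7% (72.3 to 85.9%) and 75.8% (68.5 to 82.1%) of cells of these libraries.

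Cnr1 was highest in PEP2-like neurons at 106 ± 20.4 CPM, followed by NF1-like (57.6 ± 5.52 CPM), NF2-like (41.7 ± 3.06 CPM), PEP3/4-like (32.5 ± 0.383 CPM), and PEP1-like neurons (21.1 ± 0.557 CPM). PEP5- and NP2-like neurons were at 9.79 ± 2.24 and 7.01 ± 0.136 CPM. NP1- and NP3-like neurons were at 2.08 ± 1.11 and 0.208 ± 0.180 CPM, and cLTMR-like neurons at 1.89 and 1.11 CPM in Male-Sham and Female-Sham, near or below the 0 to 1.80 CPM of SGC-like cells. Clusters of 1 class were far apart for Cnr1. Among PEP2-like neurons, the Dcn and Tmc3 cluster had 171 and 130.0 CPM in Male-Sham and Female-Sham, and the Stum and Col25a1 cluster 66.4 and 62.4 CPM. Among NF1-like neurons, the cluster led by Pvalb and Pln had 139 and 164 CPM, and that led by Ntng1 and Cadps2 25.7 and 19.0 CPM. Pvalb is known as a marker of proprioceptors. Among PEP5-like neurons, the cluster led by Nkx6-2 and Foxp2 had 1.97 and 1.43 CPM, and the cluster led by Pnoc, Penk, and Trpm8 59.9 and 40.6 CPM.

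**Figure D1:**
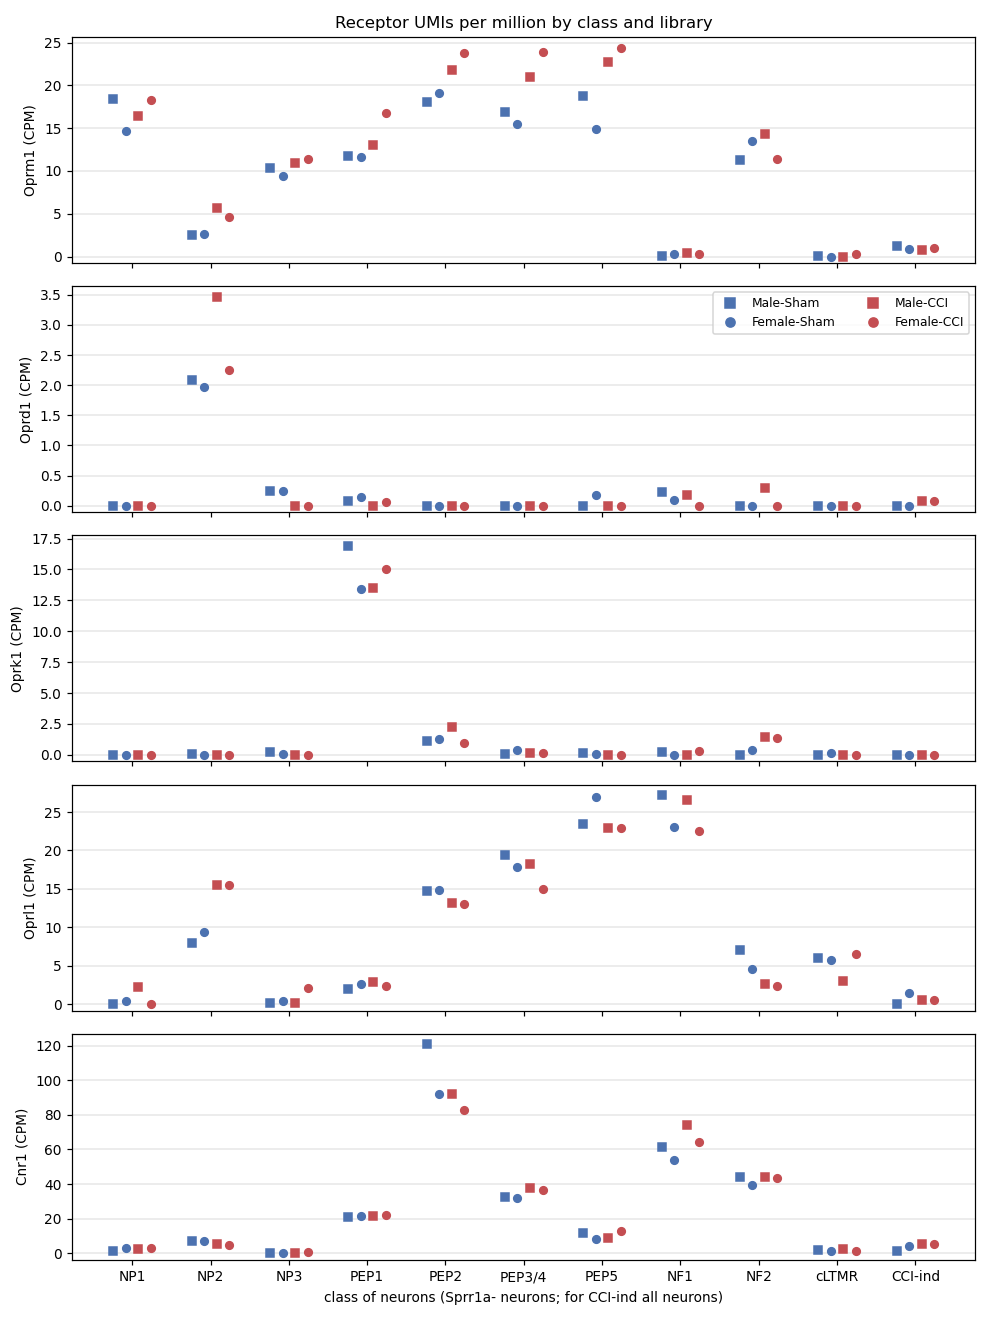
Levels of the 5 receptors (CPM, vertical axes) in Sprr1a- neurons of each class, and in all neurons of CCI-ind clusters, 1 point per library (squares male, circles female, blue sham, red CCI). Oprd1 is seen in NP2-like neurons (1.98 to 3.47 CPM) and Oprk1 in PEP1-like neurons (13.4 to 16.9 CPM), while the other 3 receptors are spread over several classes.

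**Figure D2:**
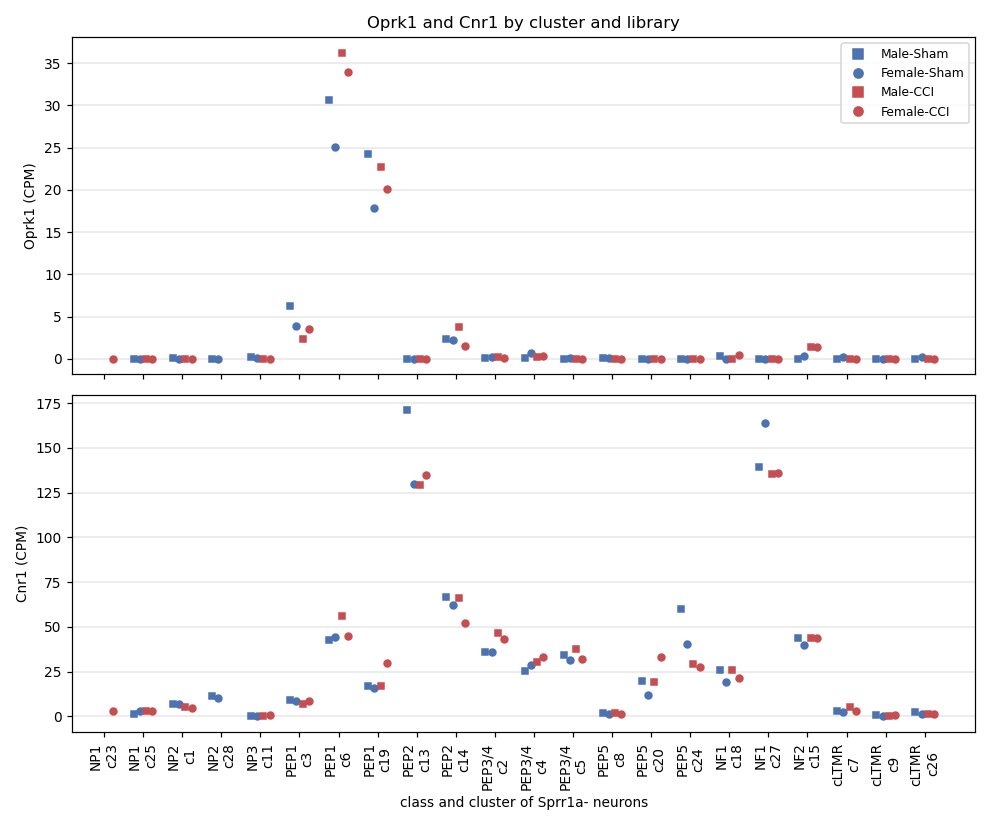
Levels (CPM) of Oprk1 and Cnr1 in Sprr1a- neurons of the clusters that make up the classes, 1 point per library (squares male, circles female, blue sham, red CCI). Clusters of 1 class lie apart, as for Cnr1 in the sham libraries of NF1-like neurons, at 25.7 and 19.0 CPM in the Ntng1 cluster and 139 and 164 CPM in the Pvalb cluster.

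The genes most like each receptor were sought by Pearson correlation of log2(CPM + 1) over 20 values, 10 classes in 2 sham libraries, among 10072 genes. The points share libraries and classes, and no test was made. They were Zbtb20, Arl4a, and Plxnb2 (r = 0.970, 0.948, and 0.941) for Oprm1 and Otoa, Fam98b, and Mrgprd (r = 0.968, 0.886, and 0.867) for Oprd1. For Oprk1 they were Cldn9, Lig1, and Ppp2r5b (r = 0.951, 0.877, and 0.802), for Oprl1 Sirpa, BC029722, and Ddx1 (r = 0.945, 0.933, and 0.932), and for Cnr1 Dpysl2, Dync1h1, and Syn2 (r = 0.921, 0.920, and 0.912).

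Of the neurons of Male-Sham and Female-Sham, 69.2% and 62.4% had a UMI of any of the 5 receptors, and of Male-CCI and Female-CCI 52.0% and 47.8%. Receptors were also found in the same neuron. In Sprr1a- PEP1-like neurons of Male-Sham, 151 of 214 cells with an Oprk1 UMI had one of Cnr1 (70.6%), against 34.1% of cells without Oprk1. In Female-Sham the shares were 65.0% against 33.1%. They were 80.9% against 40.5% in the male and 77.9% against 37.4% in the female CCI library. Cells with Oprk1 had a median of 53741.5 UMIs in Male-Sham and cells without it 56078. The 2 genes were high in the same cluster, led by Fgg, where Cnr1 was at 42.7 and 44.4 CPM in sham, beside 9.38 and 8.53 CPM in the Cldn9 and Comp cluster. In NP2-like neurons, 14 of 58 cells with Oprd1 in Male-Sham and 8 of 53 in Female-Sham also had Oprm1, 24.1% and 15.1%, against 13.9% and 11.3% of cells without Oprd1. None of these shares was tested.

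Over all neurons, Oprl1 and Oprk1 were lower after CCI, and Cnr1, Oprm1, and Oprd1 were not called. A gene was called where edgeR's quasi-likelihood test over all genes gave an adjusted p under 0.05 and an absolute log2 fold change over 0.5, as 4796 of 17233 genes did (27.8%, with 12.7% lower). Sprr1a itself was at 45.4 and 102 CPM in sham and 1926 and 1445 in CCI. Oprl1 went from 10.6 and 10.4 CPM in Male-Sham and Female-Sham to 5.54 and 5.29 CPM in Male-CCI and Female-CCI, and fell by 0.90 ± 0.06 on the log2 scale (SE, edgeR adjusted p = 5.4e-05). Oprk1 went from 2.92 and 2.66 to 1.25 and 1.49 CPM and fell by 0.97 ± 0.13 (edgeR adjusted p = 0.0010). For all 5 receptors, called or not, the CCI libraries lay below both sham libraries. The share of all genes that lay apart was not computed.

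Cnr1 was at 23.8 and 22.3 CPM in sham and 16.3 and 15.4 in CCI, and its log2 fold change of -0.49 ± 0.06 was just short of 0.5 (edgeR adjusted p = 7.4e-04). A fit that leaves out a library has a single library in 1 group, which is assumed to vary like the 2 of the other, and this holds for each such value given here. In such fits Cnr1 was past both limits without Female-Sham (-0.54) or without Male-CCI (-0.54). Oprm1 was at 8.91 and 8.97 CPM in sham and 6.01 and 7.35 in CCI (log2 fold change -0.36 ± 0.10, edgeR adjusted p = 0.017), and was called without Female-CCI (-0.51). Oprd1 was at 0.450 and 0.364 CPM in sham and 0.307 and 0.200 in CCI (log2 fold change -0.62 ± 0.27, edgeR adjusted p = 0.090), and was called with sex as a block (-0.63, edgeR adjusted p = 0.043). A level over all neurons mixes the makeup of the library with the level in each neuron. CCI-ind neurons numbered 44 and 139 in sham and 1268 and 1599 in CCI libraries.

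Within CCI libraries, all 5 receptors were lower in Sprr1a+ than in Sprr1a- neurons, a comparison in which 45.6% of genes were called and 24.7% were lower. Oprk1 and Oprd1 passed the filter on low counts through Sprr1a- neurons alone, so they could only come out as lower. Oprm1 was at 0.988 CPM in Sprr1a+ and 11.9 in Sprr1a- neurons of Male-CCI. In Female-CCI these were 1.15 and 13.7 CPM. It fell by 3.40 ± 0.10 on the log2 scale (edgeR adjusted p = 3.0e-10). Oprl1 fell by 3.93 ± 0.12, with 0.693 against 11.3 CPM in Male-CCI and 0.546 against 10.1 CPM in Female-CCI (edgeR adjusted p = 4.0e-10). Sprr1a+ values lay below both Sprr1a- values for each of these receptors, and the share of all genes that did so was not computed.

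Oprk1 was nearly missing from Sprr1a+ neurons, with 2 and 3 UMIs in Male-CCI and Female-CCI, against 201 and 235 UMIs in Sprr1a- neurons. That is 95.5-fold lower in CPM (95% exact interval of counting error, 40.6 to 296). PEP1-like neurons, which carry most Oprk1, held only 0 and 8 Sprr1a+ neurons, and 1227 and 1525 of the Sprr1a+ neurons were in CCI-ind clusters. The value over all neurons thus mixes classes, and the part of class makeup in it was not tested. Within PEP1-like neurons, the 8 Sprr1a+ cells of Female-CCI held 2 of the 3 Oprk1 UMIs in that library's Sprr1a+ neurons (10.6 CPM, where a count of 3 would be 15.9 CPM), against 15.02 CPM in its Sprr1a- neurons. These 8 cells were shallow, with a median of 5119.5 UMIs against 49984 in the Sprr1a- cells. Few Sprr1a UMIs are needed to pass the limit at such depth. A difference within this class was not detectable at this depth, and none was tested. Oprd1 had 7 and 7 UMIs in Sprr1a+ and 43 and 25 in Sprr1a- neurons, and fell by 2.23 ± 0.40 (edgeR adjusted p = 5.1e-04). With any Sprr1a UMI as the limit it was at -0.75 and was not called. NP2-like neurons, with 188 of the 224 Oprd1 UMIs in neurons, held 0 and 7 Sprr1a+ neurons in Male-CCI and Female-CCI. The part of class makeup in the Oprd1 value was not tested. Cnr1 went from 26.9 and 24.9 CPM in Sprr1a- to 7.28 and 5.98 CPM in Sprr1a+ neurons, and fell by 1.79 ± 0.06 (edgeR adjusted p = 1.5e-09).

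Markers of other cell types moved between the same neurons. In Sprr1a+ and Sprr1a- neurons of Male-CCI and Female-CCI, immune markers summed to 7.30 and 10.3 against 6.88 and 3.68 CPM (3 of 7 higher), fibroblast markers to 8.48 and 8.99 against 5.48 and 6.18 CPM (3 of 5 higher), and endothelial markers to 4.25 and 6.18 against 0.750 and 0.870 CPM (3 of 4 higher). Satellite glia markers summed to 1943 and 2295 against 2331 and 2379.9 CPM (1 of 10 higher and 1 lower), and Schwann cell markers to 5.04 and 4.90 against 6.82 and 5.76 CPM (1 of 3 lower). Their part in the receptor results was not tested.

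Sprr1a+ neurons also had fewer cells with a receptor. Of them, 32.0% and 25.2% had a UMI of any of the 5 in Male-CCI and Female-CCI, against 73.8% and 69.6% of Sprr1a- neurons. The few Sprr1a+ neurons of sham were low as well, at 11.9% and 16.0% of cells in Male-Sham and Female-Sham. Thinned to 10000 UMIs per cell, a depth chosen after the data were seen that left out 53 to 118 cells of each kind, Oprm1 was found in 1.07% and 0.476% of Sprr1a+ neurons and 12.1% and 13.2% of Sprr1a- neurons of CCI. Cnr1 was found in 6.27% and 6.67% of Sprr1a+ and 20.6% and 19.8% of Sprr1a- neurons.

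**Figure D3:**
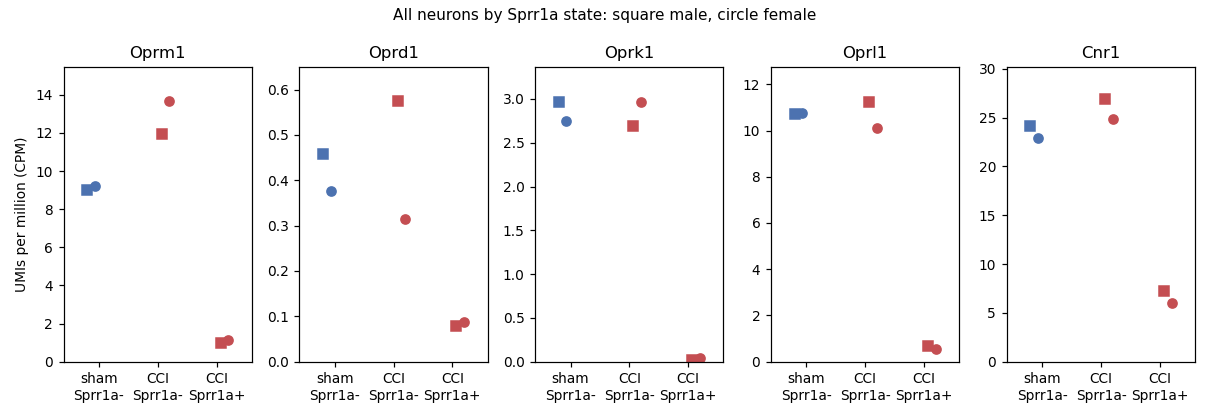
Levels of the 5 receptors (CPM) in Sprr1a- neurons of sham and in Sprr1a- and Sprr1a+ neurons of CCI, 1 point per library (squares male, circles female). Sprr1a+ neurons of CCI are lowest in every panel, and Oprm1 in Sprr1a- neurons of CCI (11.9 and 13.7 CPM) lies above both sham libraries (9.03 and 9.21 CPM). These levels pool classes whose makeup differs between sham and CCI, and the Oprm1 difference over all Sprr1a- neurons was not tested.

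The classes with Sprr1a+ neurons of their own mostly showed lower receptor levels in those neurons. In NP1-like neurons, known for itch, Oprm1 went from 18.4 and 14.7 CPM in Sprr1a- neurons of sham to 1.86 and 3.97 CPM in Sprr1a+ neurons of CCI. It fell by 2.47 ± 0.29 (edgeR adjusted p = 1.9e-10), where 41.6% of genes were called. Within CCI libraries it fell by 2.53 ± 0.34 (edgeR adjusted p = 4.9e-05, 23.9% of genes called). For Cnr1, only Sprr1a+ neurons of CCI reached the level of the filter on low counts in both libraries, which favors a rise. It was at 1.30 and 2.86 CPM in sham and 4.73 and 5.56 CPM in Sprr1a+ neurons of CCI, and rose by 1.43 ± 0.44 (edgeR adjusted p = 0.0043). This call was lost with DESeq2 (adjusted p = 0.12), without Male-Sham (0.87), without Female-CCI (1.29), and with doublets kept (0.86). Within CCI libraries, the Cnr1 difference of 1.07 ± 0.50 was not called (edgeR adjusted p = 0.12), and it was -0.35 with any Sprr1a UMI as the limit. Sprr1a states of NP1-like neurons lay mostly in separate clusters. The cluster with 29 sham and 226 CCI neurons had 18 Sprr1a- neurons of CCI. That with 145 sham and 51 CCI neurons had 48. The part of this split in the values of NP1-like neurons was not tested.

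In NF2-like neurons 3 receptors were lower. Oprm1 went from 11.3 and 13.4 CPM in sham to 2.38 and 0.624 CPM in Sprr1a+ neurons of CCI, and fell by 2.63 ± 0.39 (edgeR adjusted p = 3.0e-04, 43.7% of genes called). Cnr1 went from 43.9 and 39.6 to 8.86 and 6.24 CPM and fell by 2.19 ± 0.18 (edgeR adjusted p = 6.2e-06). Oprl1 had no UMI in the Sprr1a+ neurons and 65 in the sham neurons, which is at least 24.2-fold lower with a floor of 3 UMIs over both CCI libraries. It passed the filter on low counts through the sham neurons alone, so it could only come out as lower. Against Sprr1a- neurons of the same CCI libraries, where 34.8% of genes were called, Oprm1 fell by 2.83 ± 0.38 and Cnr1 fell by 2.33 ± 0.19. There Oprl1 was at least 10.1-fold lower, with the same limit, as it passed the filter through Sprr1a- neurons alone.

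In NF1-like neurons, Oprl1 went from 27.2 and 23.1 CPM in sham to 4.22 and 4.70 CPM in 55 and 32 Sprr1a+ neurons of Male-CCI and Female-CCI. It fell by 2.20 ± 0.24 (edgeR adjusted p = 3.4e-06, 45.5% of genes called). Cnr1 was at 61.5 and 53.7 CPM in sham and 35.7 and 26.4 in Sprr1a+ neurons, and its log2 fold change of -0.50 ± 0.15 was just under the limit of 0.5 (edgeR adjusted p = 0.012). It was called with sex as a block (-0.54, edgeR adjusted p = 6.6e-04), and was -1.47 without integration and 0.0324 with any Sprr1a UMI as the limit. Within CCI libraries, where 43.8% of genes were called, Oprl1 fell by 2.23 ± 0.27 (edgeR adjusted p = 9.3e-11) and Cnr1 by 0.83 ± 0.14 (edgeR adjusted p = 6.0e-07). NF1-like neurons joined clusters that lay far apart for Cnr1, and Sprr1a states were spread unevenly over them. Of their CCI neurons, 65 of 148 were Sprr1a- in the larger cluster and 53 of 57 in the smaller. The part of this mix in the values of NF1-like neurons was not tested.

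PEP5-like neurons, which express Trpm8, the cold receptor, were taken at clustering resolution 0.4, where Sprr1a+ neurons of CCI numbered 149 and 160. Of these, 145 and 149 were in CCI-ind clusters at resolution 0.8. Oprm1 went from 18.7 and 14.8 CPM in sham to 1.54 and 0.327 CPM, and fell by 3.77 ± 0.31 (edgeR adjusted p = 4.5e-11, 46.3% of genes called). Oprl1 went from 23.4 and 26.9 to 3.36 and 2.45 CPM and fell by 2.80 ± 0.20 (edgeR adjusted p = 1.2e-13). Cnr1 went from 11.3 and 8.72 to 4.62 and 4.90 CPM and fell by 0.76 ± 0.22 (edgeR adjusted p = 0.0034), a call lost with DESeq2 (adjusted p = 0.075), without Male-Sham, and without Male-CCI. Over NP1-, NF1-, NF2-, and PEP5-like neurons, 10 of 20 pairs of receptor and class passed the filter on low counts, of which 8 were called lower and 1 higher. Of all genes, 2330 were called lower and 2398 higher of 11378 in NP1-like neurons, and 2880 and 2624 of 12104 in NF1-like neurons. These were 2638 and 2512 of 11778 in NF2-like and 3017 and 2817 of 12587 in PEP5-like neurons. A pair can pass this filter through 1 group alone. Only sham neurons reached its level in both libraries for Oprl1 in NF2-like and Oprm1 in NP1-, NF2-, and PEP5-like neurons. For Cnr1 in NP1-like neurons, the pair called higher, only Sprr1a+ neurons of CCI did. Passing in this way favors a difference in the direction called. Within CCI libraries, only Sprr1a- neurons reached it in both libraries for Oprm1 in NP1- and NF2-like neurons. In CCI-ind clusters, where 4.6% of genes were called, Sprr1a+ and Sprr1a- neurons had log2 differences of -0.97 ± 0.65 for Oprm1, -0.05 ± 0.31 for Cnr1, and 0.58 ± 1.13 for Oprl1, none called.

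Sprr1a- neurons of CCI were not free of Sprr1a UMIs. Sprr1a was called higher than in Sprr1a- neurons of sham in 9 of 10 classes, by 4.42 to 5.18 on the log2 scale. Atf3, a transcription factor gene that is also switched on by axotomy, rose in PEP5-like (0.70 ± 0.08, edgeR adjusted p = 1.4e-05), NF1-like (1.03 ± 0.15, edgeR adjusted p = 0.018), and cLTMR-like neurons (0.60 ± 0.10, edgeR adjusted p = 0.0016) and was not called in the other 7 classes. In those it ranged from -0.26 ± 0.07 in NP2-like (edgeR adjusted p = 0.022) to 2.63 ± 1.23 in NF2-like neurons (edgeR adjusted p = 0.47). SGC-like cells passed the Sprr1a limit too, 17 of 118 in Male-CCI and 16 of 109 in Female-CCI. In Male-Sham and Female-Sham, 1 of 186 and 2 of 145 did. The source of the Sprr1a UMIs and the part of injured cells in the values of Sprr1a- neurons were not tested.

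In Sprr1a- neurons, 26 of 50 pairs of receptor and class were tested, and the 3 that were called were all in NP2-like neurons, where 4.46% of genes were called. Oprm1 had 80 and 77 UMIs in NP2-like neurons of Male-Sham and Female-Sham and 67 and 49 in those of Male-CCI and Female-CCI. Its level went from 2.56 and 2.62 to 5.66 and 4.59 CPM, and rose by 0.97 ± 0.19 (edgeR adjusted p = 0.0025). A UMI was found in 15.2% (12.1 to 18.8%) and 11.7% (9.20 to 14.5%) of sham neurons, and in 29.9% (22.7 to 38.0%) and 24.1% (17.7 to 31.4%) of CCI neurons. With any Sprr1a UMI as the limit, its log2 fold change was 0.91 and was not called (edgeR adjusted p = 0.19).

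Oprl1 went from 7.94 and 9.43 to 15.6 and 15.5 CPM in NP2-like neurons and rose by 0.82 ± 0.12 (edgeR adjusted p = 2.4e-04). Cnr1 went the other way there, from 7.10 and 6.91 to 5.07 and 4.77 CPM, and fell by 0.53 ± 0.15 (edgeR adjusted p = 0.024). This call was lost with DESeq2 (adjusted p = 0.27) and on leaving out any 1 of the 4 libraries (log2 fold change -0.57 to -0.49). Oprd1 had a log2 fold change of 0.48 ± 0.25 and was not called (edgeR adjusted p = 0.23). In the same neurons, the 10 NP2 markers summed to 1837 and 1678 CPM in sham and 1606 and 1534 in CCI, and the 11 PEP1 markers to 2021 and 2477 CPM in sham and 3397 and 3499.7 in CCI. The part of these markers in the receptor results was not tested.

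In the other classes, Oprm1 had log2 fold changes above 0 without a call. In PEP3/4-like neurons it was at 16.9 and 15.5 CPM in sham and 20.9 and 23.9 in CCI (0.46 ± 0.10, edgeR adjusted p = 0.0088). In PEP5-like neurons it was at 18.8 and 14.9 CPM in sham and 22.7 and 24.4 in CCI (0.47 ± 0.14, edgeR adjusted p = 0.042). Both were short of the fold limit. They were past it in fits with a single library in 1 group, without Male-CCI (0.54) and without Male-Sham (0.61), respectively. The values were 0.38 ± 0.12 in PEP1-, 0.29 ± 0.13 in PEP2-, 0.13 ± 0.18 in NP3-, 0.10 ± 0.21 in NF2-, and 0.04 ± 0.25 in NP1-like neurons. Of all Sprr1a- neurons of Male-CCI and Female-CCI, in any class, 65.3 and 60.8% had a Sprr1a UMI below the limit. The 8 classes tested for Oprm1 share the same 4 libraries, so their values do not stand as separate results.

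Outside NP2-like neurons, Oprl1 and Cnr1 were not called in Sprr1a- neurons without a block. Oprl1 was lowest in NF2-like neurons, at -1.19 ± 0.38 (7.00 and 4.61 CPM in sham and 2.62 and 2.33 in CCI, edgeR adjusted p = 0.12), and was called there with sex as a block (-1.15, edgeR adjusted p = 0.044). Cnr1 in NF2-like neurons, low in Sprr1a+ neurons, was at 43.9 and 39.6 CPM in sham and 44.0 and 43.6 in Sprr1a- neurons of CCI. Oprk1 in PEP1-like neurons was at 16.9 and 13.4 CPM in sham and 13.5 and 15.02 in CCI, with overlapping groups (-0.06 ± 0.13, edgeR adjusted p = 0.80). Genes called in these classes were 3.97% in NP1-, 2.56% in NP3-, 5.18% in PEP1-, 4.37% in PEP2-, 3.56% in PEP3/4-, 3.35% in PEP5-, 1.11% in NF1-, 1.92% in NF2-, and 1.71% in cLTMR-like neurons.

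**Figure D4:**
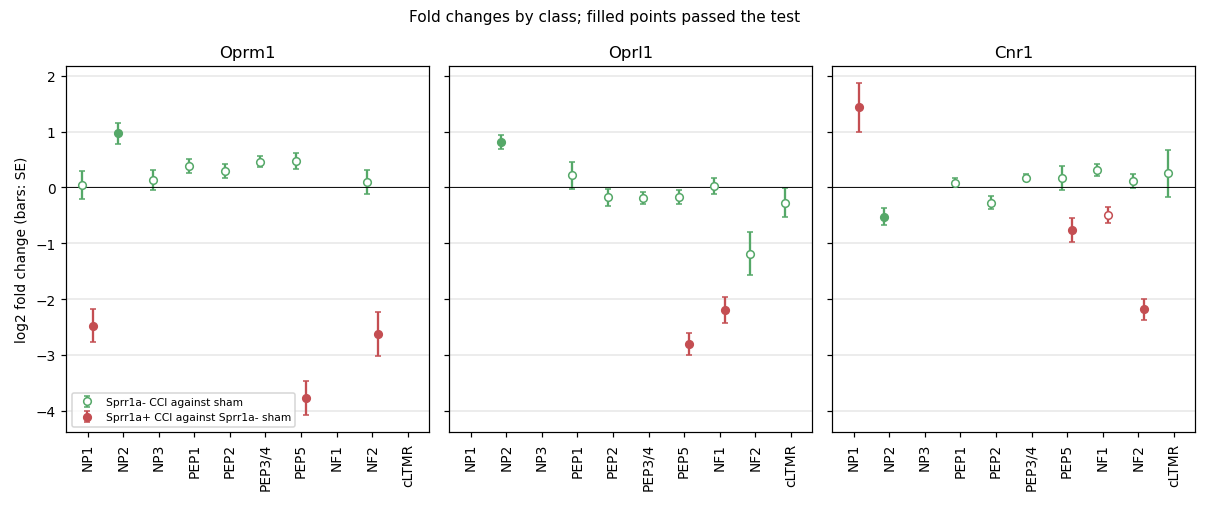
log2 fold changes (bars, SE) of Oprm1, Oprl1, and Cnr1 by class, in Sprr1a- (green) and Sprr1a+ (red) neurons of CCI, each against Sprr1a- neurons of sham, with filled points for called results. Oprm1 lies at 0.04 to 0.97 in Sprr1a- and at -3.77 to -2.47 in Sprr1a+ neurons, and Oprl1 in Sprr1a+ NF2-like neurons, with no UMI, is left out.

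Other genes of the pathway were followed over all neurons, CCI against sham, beside a median log2 fold change of -0.01 over all genes tested, of which 27.8% were called, 15.2% higher and 12.7% lower. The counts of each list are a description to be read against these shares. Of 4 opioid peptide precursors, Pomc rose by 0.54 ± 0.06, and Penk (0.18 ± 0.26), Pdyn (-1.40 ± 0.53), and Pnoc (0.04 ± 0.25) were not called, with a median of 0.11. Of 12 tested endocannabinoid enzymes and other cannabinoid-responsive receptors, 2 were higher, 1 lower, and 9 not called (median -0.08), a share near the 27.8% of all genes. Daglb, which makes the endocannabinoid 2-AG, rose by 0.53 ± 0.07, Gpr119 rose by 0.78 ± 0.14, and Gpr18 fell by 1.03 ± 0.23.

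Of 19 G protein subunit genes, 4 were lower and 15 not called (median near 0), beside 27.8% of all genes called. The gamma subunits Gng7, Gng13, and Gng8 fell by 1.10 ± 0.10, 0.97 ± 0.15, and 0.92 ± 0.13. Of 21 receptor kinases, arrestins, and receptor-binding proteins, 4 were higher, 4 lower, and 13 not called (median -0.04). Grk3 and Grk2, kinases that mark active receptors for arrestin, fell by 1.01 ± 0.08 and 0.60 ± 0.04, and Gprasp2 fell by 0.99 ± 0.05. Arrb1 (beta-arrestin 1), Flna, and Rgs20, a regulator of G protein signaling, rose by 0.69 ± 0.05, 0.80 ± 0.06, and 1.47 ± 0.06. Of 18 tested effectors, 6 were lower and 12 not called (median -0.27), among them the potassium channel subunit Kcnj3 (fell by 1.23 ± 0.08) and the adenylyl cyclases Adcy8 (fell by 1.05 ± 0.19) and Adcy1 (fell by 0.67 ± 0.09).

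Of 26 other Gi/o-coupled receptors tested, 10 were lower, 3 higher, and 13 not called (median -0.40). The acetylcholine receptor Chrm2 fell from 7.84 and 6.86 CPM in sham to 2.48 and 2.50 in CCI, and the somatostatin receptor Sstr2 and the glutamate receptor Grm3 fell by 1.34 ± 0.08 and 1.12 ± 0.22 on the log2 scale. The dopamine receptor Drd2, the adrenergic receptor Adra2a, and the neuropeptide Y receptor Npy2r rose by 2.85 ± 0.20, 1.55 ± 0.13, and 0.83 ± 0.08. Between Sprr1a+ and Sprr1a- neurons of CCI, 45.6% of all genes were called, 20.9% higher and 24.7% lower, with a median near 0. There, 15 of 23 such receptors were lower and 3 higher (median -1.14), and 10 of 18 effectors were lower and none higher (median -0.64). In that comparison 2 of 4 precursors were lower and 1 higher, 4 of 12 endocannabinoid genes lower and 2 higher, 4 of 19 G protein subunits lower and 4 higher, and 6 of 21 kinases, arrestins, and binding proteins lower and 4 higher. The called shares of the last 3 of these lists were near that of all genes.

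Over all neurons, markers of other cell types were also compared between CCI and sham. The 10 satellite glia markers summed to 2752 and 3176 CPM in sham and 2121 and 2337 in CCI, with 3 lower and 1 higher. Schwann cell markers summed to 6.19 and 5.56 CPM in sham and 5.86 and 5.33 in CCI, with 0 of 4 called, and immune markers to 9.98 and 3.29 CPM in sham and 7.11 and 7.03 in CCI, with 1 of 7 higher. Fibroblast markers summed to 4.89 and 5.64 CPM in sham and 7.10 and 7.60 in CCI, with 3 of 5 higher, and endothelial markers to 0.542 and 0.623 CPM in sham and 2.64 and 3.55 in CCI, with 3 of 4 higher. The 6 neuron markers summed to 10899 and 10884 CPM in sham and 13644 and 12976 in CCI, with 1 higher and 1 lower. Their part in the receptor results was not tested.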

How the data were processed

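GFP+ DRG cells of 4 libraries were profiled by droplet scRNA-seq. The authors counted UMIs with Cell Ranger, and the deposited matrices are UMI counts, whole numbers, for every gene in every cell. The submitters' processing notes give Cell Ranger 2.1.1, and the headers of the matrices 3.0.2. The receptors, gene lists, and markers were chosen with earlier results of these data known.

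Doublets were scored with Scrublet in scanpy 1.11.5 (expected rate 0.1). Its own threshold marked 0 to 121 cells per library and was not used, and as many top-scoring cells were dropped as the study states for each library. Cells with at least 1500 genes and at most 10% mitochondrial UMIs were integrated and clustered (Seurat 5.3.0, 3000 genes, 20 components, resolution 0.8). A class needed at least 3 of its markers. UMIs were summed per library, class, and Sprr1a state, with at least 10 cells, and tested with edgeR 4.0.16 (robust quasi-likelihood, filterByExpr, TMM, Benjamini-Hochberg adjustment), with library as a block for Sprr1a states within CCI. Alternatives were DESeq2 1.42.0, sex as a block, no TMM, all genes without a low-count filter, other resolutions, no integration, doublets kept, other Sprr1a limits, and each library left out. On simulated counts for all neurons of CCI against sham, edgeR recovered 77.3% of genes changed by 1 on the log2 scale and 100% of those changed by 2. Of each list, up to 3 called genes per direction with the largest change were named. Libraries held 195684124 to 237069156 UMIs. Positions are from GENCODE vM21 and promoter sequences from RefSeq. Oprk1 is named without a promoter sequence.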

Additional observations from a re-analysis of the deposited data

Results flagged for a closer look

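In Sprr1a- neurons, Oprl1 and Cnr1 were higher in both CCI libraries than in both sham libraries in some classes and lower in others. The difference between classes was not tested. With 2 libraries per group, libraries can lie apart without a true difference. The share of all genes that lay apart in these classes was not computed. Oprl1 was higher in NP2-like neurons (log2 fold change 0.82) and lower in PEP2-like (-0.17), PEP5-like (-0.17), and NF2-like neurons (-1.19). Cnr1 was higher in PEP1-like (0.0865), PEP3/4-like (0.18), and NF1-like neurons (0.31) and lower in NP2-like (-0.53) and PEP2-like neurons (-0.27). Of these values, those of NP2-like neurons were called by edgeR. The Cnr1 call there was lost with DESeq2, and its log2 fold change was -0.57 to -0.49 with a library left out.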

How the results depend on the processing

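Over all neurons, Oprl1 and Oprk1 were called under every alternative run, with leave-one-out ranges of -0.94 to -0.86 and -1.10 to -0.85. Cnr1 became called without TMM (-0.54), with doublets kept (-0.55), and on leaving out Female-Sham or Male-CCI (range -0.54 to -0.44). Oprm1 ranged over -0.51 to -0.23 and Oprd1 over -0.97 to -0.34 when 1 library was left out. With sex as a replicate block, Oprd1 was called (-0.63), as were Oprl1 in Sprr1a- NF2-like neurons (-1.15) and Cnr1 in Sprr1a+ NF1-like neurons against sham (-0.54), and the block changed no other receptor call. Labels carry no replicate numbers, so sex pairs the libraries only by design. Without TMM, the median over all genes between Sprr1a states of CCI moved to -0.17. Between Sprr1a states, Oprk1 was -6.40 to -5.93 in single CCI libraries, and with any Sprr1a UMI as the limit Oprd1 was -0.75 and 4760 genes were called instead of 7400. Receptor and class pairs called in Sprr1a- neurons were 8 with all neurons of each class instead of 3, and 2 to 4 with 1 library left out. Between Sprr1a states of CCI they were 3 without integration, 16 with doublets kept, and 2 with any Sprr1a UMI instead of 6. Against sham they were 4 without integration instead of 9, and 7 to 10 with 1 library left out. The causes were not tested.

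Values that changed sign were not called under the reported settings. They compare Sprr1a- neurons of CCI with sham, and for CCI-ind neurons the Sprr1a states of CCI, unless stated. With Sprr1a above 2, Oprm1 was -0.0892 in NP1- and -0.0677 in NF2-like neurons, Cnr1 -0.0706 in NF2-like and 0.16 in CCI-ind neurons, and Oprl1 -0.00738 in NF1-like neurons. With all neurons of the class, Oprm1 was -1.35 in NP1- and -0.89 in NF2-like, Cnr1 -0.78 in NF2-like, and Oprl1 -0.48 in NF1-like neurons. With any Sprr1a UMI, Cnr1 was -0.35 between Sprr1a states of NP1-like neurons and 0.0324 in Sprr1a+ NF1-like neurons against sham, and Oprk1 0.44 and Oprl1 -0.0368 in PEP1-like neurons. With doublets kept, Oprl1 was -0.21 in PEP1-, Cnr1 -0.27 in cLTMR-like, and 0.15 in CCI-ind neurons. At resolution 0.4, Oprl1 was -0.29 and Cnr1 0.00426 in CCI-ind neurons, and at resolution 1.2 Oprk1 was 0.0439 and Cnr1 -0.0116 in PEP1-like neurons. Without integration, Oprl1 was -0.13 in NF1-like and Cnr1 0.0218 in CCI-ind neurons, and without TMM Oprl1 was -0.0209 in NF1-like neurons. Leaving out 1 library gave -0.0971 to 0.20 for Oprm1 in NP1-, -0.0431 to 0.25 in NF2-, -0.22 to 0.10 for Oprk1 in PEP1-, -0.13 to 0.41 for Cnr1 in PEP5- and -0.22 to 0.71 in cLTMR-, and -0.11 to 0.15 for Oprl1 in NF1- and -1.03 to 0.11 in cLTMR-like neurons. Few UMIs limit Oprd1 and, in Sprr1a+ neurons, Oprk1.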
